A study of Rattus norvegicus with 40 samples.

Results

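The genes described here encode the ligands, receptors and close regulators of transforming growth factor beta (TGF-beta) and activin signalling in rat liver. They were taken from the gene count table by symbol, as the 10 rows named Tgfb1, Tgfb2, Tgfb3, Tgfbr1, Tgfbr2, Ltbp1, Inhba, Inhbe, Smad7 and Tgfbi, out of 17337 genes in all. The libraries came from 24 male Fischer 344 rats, 7 weeks old at the start. Treated rats received diethylnitrosamine (DEN), a hepatocarcinogen that is activated in hepatocytes, as 50 mg/kg injected into the peritoneum each week. DEN was given for 8 weeks to the rats sampled at week 8 and for 14 weeks to those sampled at weeks 14 and 20, so the livers of week 20 had been without DEN for 6 weeks. Each week had 4 untreated rats (no DEN) and 4 DEN rats, from which the non-tumor (NT) liver was sequenced and, at weeks 14 and 20, 2 tumor nodules per rat. This gave 8 groups and 40 libraries, with 8 nodule libraries per week that come from only 4 rats. The labels number the rats with a letter, and F03, F06, F09 and F10 carry F while every no DEN rat and the other DEN rats carry H. The labels do not say what the letter stands for, so values are also given without the F rats where they differ.

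TGF-beta 1, 2 and 3 are secreted as latent complexes that are tethered to the matrix by latent TGF-beta binding proteins, and once released they bind a type II receptor that phosphorylates a type I receptor. Activins are dimers of inhibin beta chains and use their own type II receptors, but both branches converge on SMAD2 and SMAD3, which enter the nucleus with SMAD4, while SMAD7 blocks the type I receptor and is itself induced by the pathway. In liver, TGF-beta restrains hepatocyte growth and drives stellate cells to make collagen, and hepatocytes are a main source of several inhibin beta chains.

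Libraries held 20528515 to 160622633 counted read pairs with a median of 30477421, and the largest, the NT liver of rat H26 at week 20, was 4.08-fold above the next. Levels are given in CPM, counts scaled to a common library total with TMM factors over the 40 libraries, and the level of a rat's nodules is the mean of its 2 nodules. CPM is not divided by gene length, so levels are compared between groups and not between genes. All 10 genes passed the filter on low counts in every comparison. In the untreated libraries of weeks 14 and 20 Tgfb2 had 2 to 14 counts. It entered the tests of NT liver at both weeks and of nodules at 20 weeks through the DEN groups. The tissue is bulk, so fewer cells of a type and less RNA per cell cannot be told apart. The hepatocyte markers Alb, Ttr, Apoa1 and Cps1 were each above 0 in all 40 libraries.

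Promoter sequences are shown for the 4 genes whose levels moved the most between untreated liver and nodules, 2 of them upward and 2 downward. The sequences are the 250 bases before the RefSeq start of each gene in build GRCr8, which is not the build the reads were aligned to, and all 10 genes were found in that RefSeq table. Capitals mark the motifs that were searched on both strands.
Tgfb2, chr13:100792686-100792935, minus strand: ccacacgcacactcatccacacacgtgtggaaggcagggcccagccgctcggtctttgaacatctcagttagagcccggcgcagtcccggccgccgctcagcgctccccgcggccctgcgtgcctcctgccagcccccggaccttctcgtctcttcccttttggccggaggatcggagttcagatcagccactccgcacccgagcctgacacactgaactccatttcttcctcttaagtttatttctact
Ltbp1, chr6:26177302-26177551, minus strand: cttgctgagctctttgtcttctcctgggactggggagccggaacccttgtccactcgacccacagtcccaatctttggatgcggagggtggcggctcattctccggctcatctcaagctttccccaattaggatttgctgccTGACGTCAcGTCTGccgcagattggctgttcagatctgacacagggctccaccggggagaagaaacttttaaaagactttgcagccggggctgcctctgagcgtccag
Inhba, chr17:53804509-53804758, minus strand: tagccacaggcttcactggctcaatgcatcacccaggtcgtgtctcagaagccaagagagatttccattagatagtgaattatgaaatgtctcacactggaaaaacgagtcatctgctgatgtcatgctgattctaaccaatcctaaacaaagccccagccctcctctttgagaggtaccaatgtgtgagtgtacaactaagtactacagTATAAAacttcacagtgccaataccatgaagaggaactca
Inhbe, chr7:65064520-65064769, minus strand: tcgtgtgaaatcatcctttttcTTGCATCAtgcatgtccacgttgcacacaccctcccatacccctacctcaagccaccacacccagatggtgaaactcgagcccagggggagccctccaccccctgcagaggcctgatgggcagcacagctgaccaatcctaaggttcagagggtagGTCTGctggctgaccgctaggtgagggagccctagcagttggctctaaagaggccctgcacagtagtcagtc

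The Ltbp1 promoter holds a cAMP response element (TGACGTCA), which starts 108 bases before the start site, and beside it the short SMAD-binding box (CAGAC, here on the other strand) at 99 bases. The Inhbe promoter holds a composite element of the kind read by ATF4 with a C/EBP partner (TGATGNAA), 228 bases before the start, and a SMAD box at 72 bases. In Inhba the TATA box (TATAAA) lies 40 bases before the start. In Tgfb2 none of the 6 motifs is present in these letters. Over 33469 promoters of the same length, 42.9% hold the SMAD box, 1.59% the cAMP response element, 3.4% the composite element and 12.9% the TATA box. Among the 10 genes the SMAD box is found in 2. The GC box (GGGCGG) is found in 4 of the 10 and in 30.5% of all promoters, and the AP-1 site (TGANTCA) in 0 of the 10 and in 6.34% of all.

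DEN liver had more transcript of the TGF-beta ligands Tgfb1 and Tgfb2 and of the latent binding protein Ltbp1 than untreated liver, and less of the inhibin beta chains Inhba and Inhbe, at every week and in NT liver and nodules alike. Tgfb3 was higher and the matrix protein gene Tgfbi lower in most of these comparisons, and the receptors Tgfbr1 and Tgfbr2 and the inhibitor Smad7 did not pass the test in any of them. In NT liver 5 of the 10 genes passed at 8 weeks, where 35.3% of all genes tested did. These were 3 higher (19.8% of all genes) and 2 lower (15.4%). At 14 weeks 7 passed against 54.4% of all genes, 4 higher (29.4%) and 3 lower (24.9%). At 20 weeks 6 passed against 27.6% of all genes, 3 higher (16.7%) and 3 lower (10.9%). In nodules 7 of the 10 differed from no DEN liver at 14 weeks, where 50.7% of all genes did, with 4 higher (27.4%) and 3 lower (23.3%). At 20 weeks 7 differed, where 52.7% did, with 4 higher (28.2%) and 3 lower (24.4%). The counts in NT liver rested in part on single rats, with 3 genes at 8 weeks without H07, and at 20 weeks 2 without F03 or H14 and 3 without H16, H26 or H28. The counts over all genes moved in the same fits, at 8 weeks from 3814 to 2692 without H07, and at 20 weeks from 2986 to 2574 without F03, 2116 without H14, 1872 without H16, 2678 without H26 and 2264 without H28. Tgfb2 and Ltbp1 passed at 20 weeks without any 1 rat. The median log2 fold change of the 10 genes was 0.09, 0.05 and -0.00 in NT liver at 8, 14 and 20 weeks and -0.26 and -0.24 in nodules at 14 and 20 weeks, with the median over all genes within 0.02 of 0 in each. With upper quartile scaling the share of all calls that were higher went from 54.1% to 67.1% in NT liver at 14 weeks, with shifts of like size in the other 4 comparisons, while each of the values that passed kept its direction. NT liver and nodules of a week were compared with the same 4 no DEN rats. These calls used edgeR's quasi-likelihood test, 4 rats against 4, two-sided, at a Benjamini-Hochberg adjusted p of at most 0.05 over all genes tested, and every adjusted p below is from this test unless another is named.

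**Figure D1:**
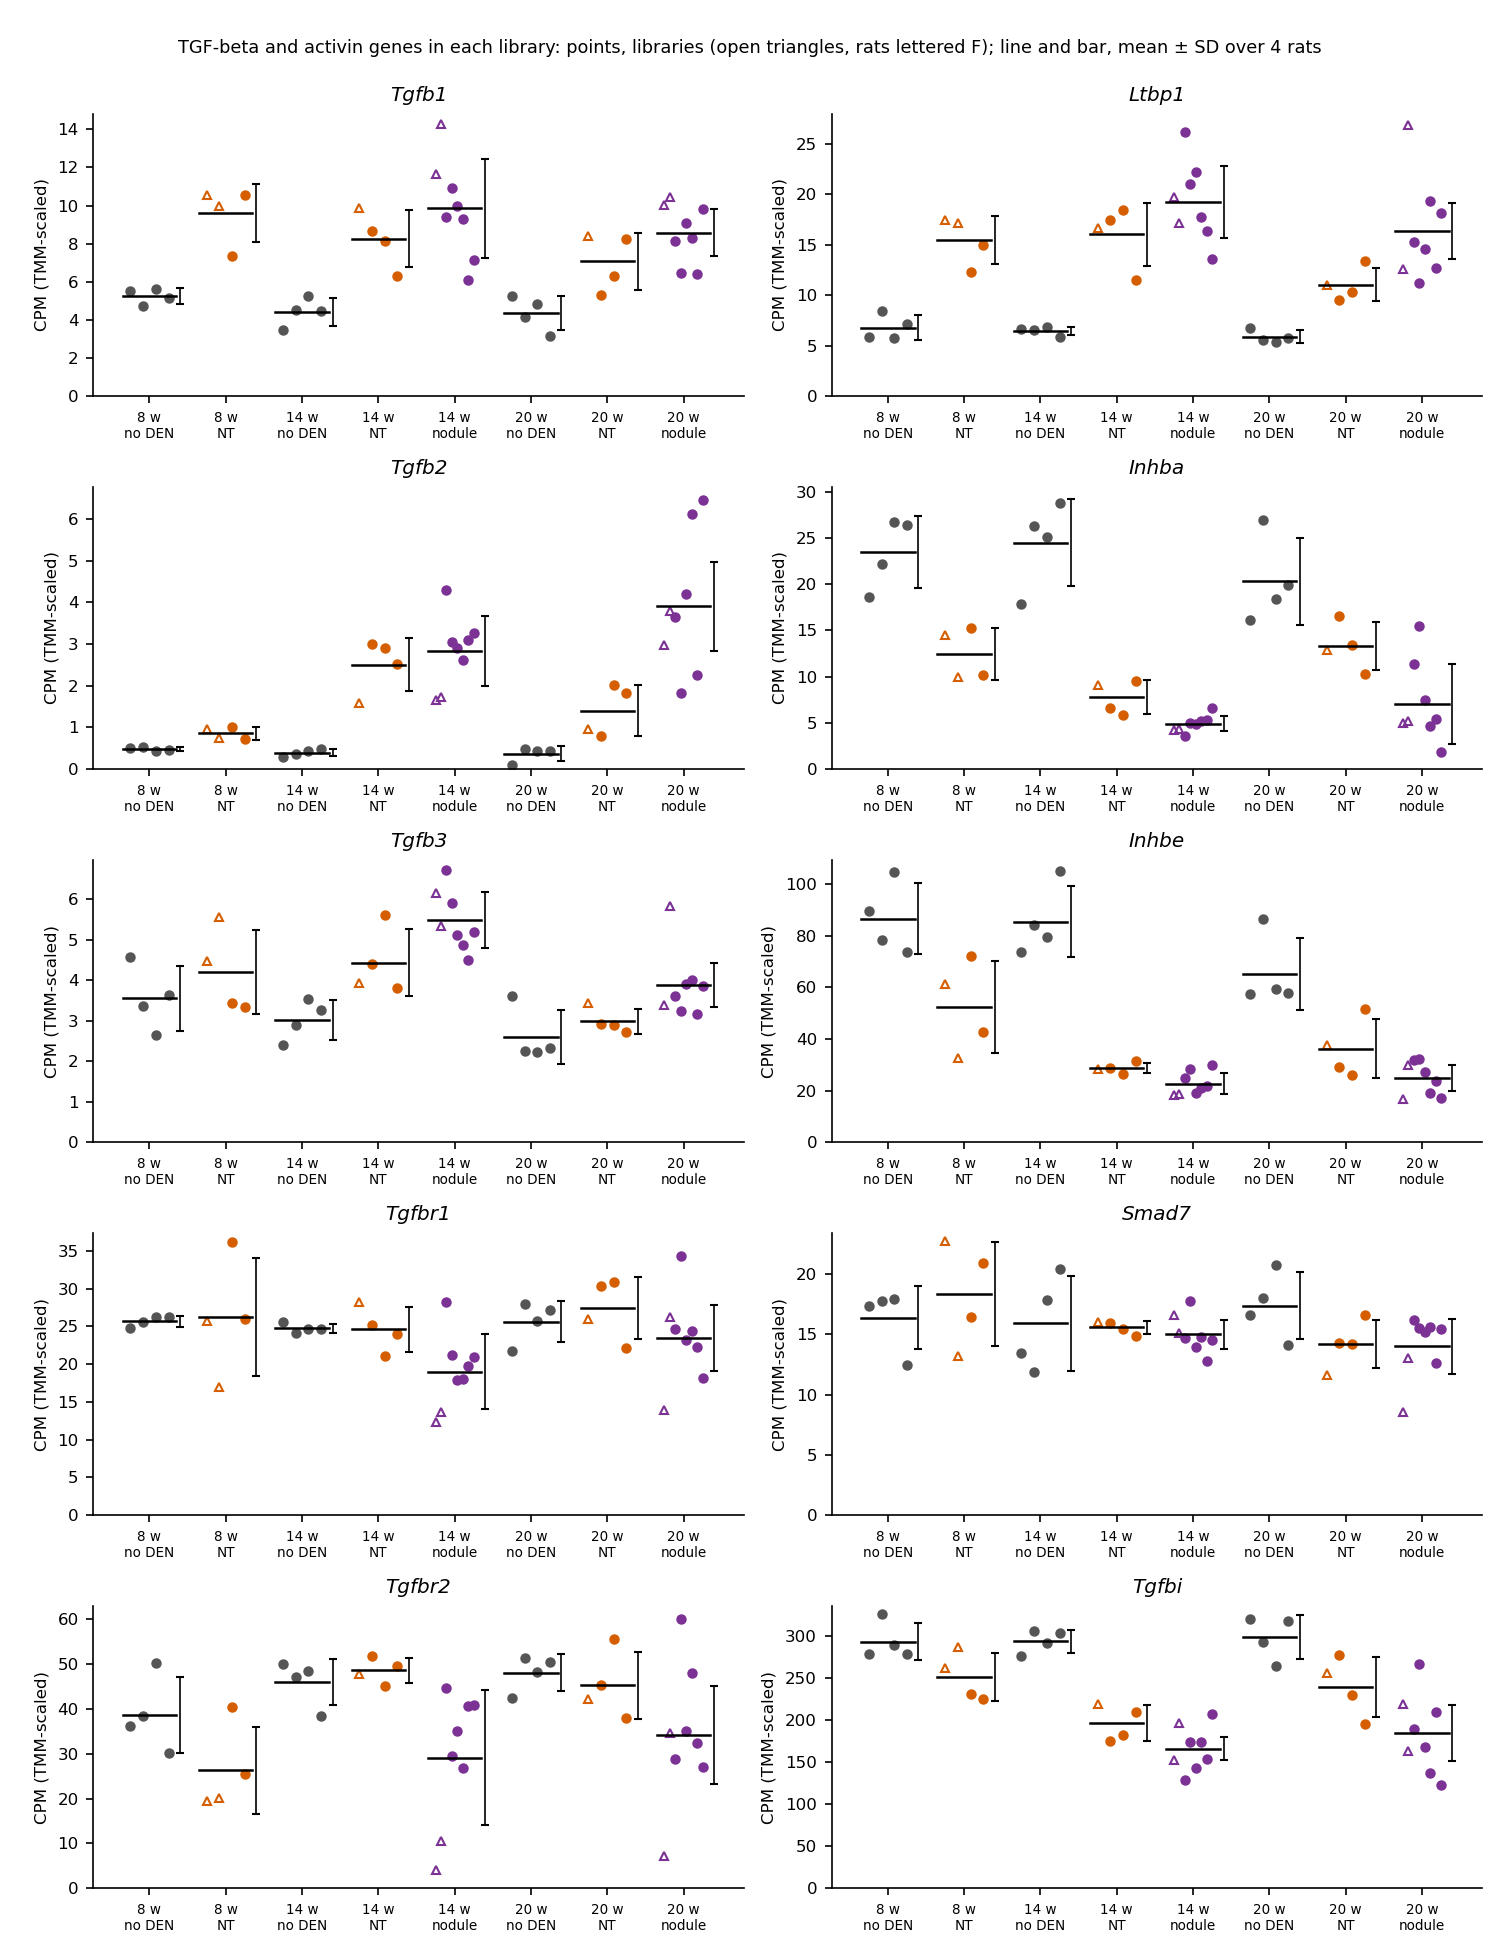
Level of each of the 10 genes (CPM, linear axis from 0) in every library by group. Points are libraries, with open triangles for rats with the letter F, and the line and bar give the mean ± SD over 4 rats. Tgfb2, Ltbp1 and Tgfb1 sit higher and Inhba and Inhbe lower in the DEN groups, and 2 nodules of rat F06 and 1 nodule of F03 lie far below the rest for Tgfbr2.

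The ligand Tgfb2 had the largest fold of the 10 genes from 14 weeks on. In no DEN liver it was barely transcribed, with 2 to 14 counts per library and levels of 0.434, 0.459, 0.518 and 0.530 CPM at 8 weeks, 0.287, 0.371, 0.436 and 0.480 at 14 weeks, and 0.0975, 0.430, 0.437 and 0.493 at 20 weeks. In NT liver it stood at 0.716, 0.738, 0.970 and 1.00 CPM at 8 weeks and at 1.60, 2.52, 2.90 and 2.99 at 14 weeks. Every DEN rat lay above every untreated rat of its week. At 20 weeks, 6 weeks after the last DEN, the NT livers read 0.796, 0.975, 1.82 and 2.03 CPM, still without overlap with no DEN liver. The nodules went from 1.67 to 4.29 CPM at 14 weeks with a median of 2.98, and from 1.84 to 6.46 CPM at 20 weeks with a median of 3.72. The fold over no DEN liver was 1.75 at 8 weeks, 6.33 at 14 weeks and 3.94 at 20 weeks in NT liver, and 6.98 and 10.5 in the nodules of 14 and 20 weeks. On the log2 scale these were 0.81 (SE 0.24, adjusted p = 0.0229), 2.66 (SE 0.27, adjusted p = 2.76e-05) and 1.98 (SE 0.45, adjusted p = 0.00906) in NT liver, and 2.80 (SE 0.29, adjusted p = 8.81e-05) and 3.39 (SE 0.37, adjusted p = 0.000117) in nodules. The difference at 8 weeks was the weakest of them. It was lost with DESeq2 (adjusted p = 0.0624), when all 8 groups shared 1 estimate of the spread (adjusted p = 0.0871), without the F rats (adjusted p = 0.0764), and without either F09 or H07. The later differences were kept without any 1 rat and with no filter on low counts. Their adjusted p-values do not allow for the entry of Tgfb2 into the tests through the DEN groups.

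Tgfb1, the isoform most tied to liver fibrosis, was higher in DEN liver in all 5 comparisons. Its levels were 4.72 to 5.60 CPM in no DEN liver at 8 weeks and 7.38, 9.96, 10.5 and 10.6 CPM in NT liver. At 14 weeks the NT livers read 6.29, 8.16, 8.68 and 9.88 CPM over no DEN livers of 3.48 to 5.27 CPM. Neither pair of groups overlapped. At 20 weeks NT liver stood at 5.31, 6.31, 8.26 and 8.40 CPM and the highest untreated rat at 5.27 CPM, so the groups were separated by a narrow gap. Nodules ranged from 6.08 to 14.3 CPM at 14 weeks (median 9.71) and from 6.43 to 10.4 CPM at 20 weeks (median 8.69). The log2 fold change in NT liver was 0.86 (SE 0.14, adjusted p = 0.00109) at 8 weeks, 0.91 (SE 0.16, adjusted p = 0.000809) at 14 weeks and 0.69 (SE 0.20, adjusted p = 0.0249) at 20 weeks. In nodules it was 1.13 (SE 0.22, adjusted p = 0.00277) at 14 weeks and 0.94 (SE 0.17, adjusted p = 0.00162) at 20 weeks, which are folds of 2.18 and 1.91. Only the call in NT liver at 20 weeks was lost by leaving out a rat, which happened without F03, H14, H16 or H28.

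Tgfb3, the third ligand, had the smallest folds of the ligands. It was 2.41 to 3.53 CPM in no DEN liver at 14 weeks and 3.80, 3.93, 4.41 and 5.60 CPM in NT liver, a log2 fold change of 0.56 (SE 0.17, adjusted p = 0.0155) without overlap. In NT liver at 8 weeks and at 20 weeks it did not pass, with log2 fold changes of 0.24 (95% interval -0.22 to 0.69) and 0.19 (-0.23 to 0.61), and the rats of the groups overlapped. Nodules stood at 4.51 to 6.73 CPM at 14 weeks, all above the untreated rats, with a log2 fold change of 0.82 (SE 0.17, adjusted p = 0.00289). At 20 weeks the nodules ranged from 3.15 to 5.83 CPM and the no DEN livers from 2.23 to 3.61 CPM, a log2 fold change of 0.55 (SE 0.20, adjusted p = 0.0413) that was lost without F03, H14, H15, H16 or H26 and with nodule 1 of each rat alone.

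Ltbp1, which anchors latent TGF-beta to the matrix, was higher at every week. No DEN livers held 5.76 to 8.39 CPM at 8 weeks, 5.90 to 6.84 at 14 weeks and 5.34 to 6.78 at 20 weeks. NT livers held 12.3, 15.0, 17.1 and 17.5 CPM at 8 weeks, 11.5, 16.7, 17.4 and 18.5 at 14 weeks, and 9.52, 10.3, 10.95 and 13.4 at 20 weeks. Treated and untreated rats of a week did not overlap. Nodules ranged from 13.6 to 26.1 CPM at 14 weeks (median 18.7) and from 11.2 to 26.9 CPM at 20 weeks (median 14.9). The folds over no DEN liver were 2.27, 2.49 and 1.87 in NT liver at 8, 14 and 20 weeks and 2.90 and 2.75 in nodules. The log2 fold changes were 1.18 (SE 0.15, adjusted p = 0.000237), 1.31 (SE 0.14, adjusted p = 3.83e-05) and 0.90 (SE 0.14, adjusted p = 0.00137) in NT liver, and 1.54 (SE 0.14, adjusted p = 5.34e-05) and 1.46 (SE 0.16, adjusted p = 9.38e-05) in nodules. Ltbp1 passed in these 5 comparisons without any 1 rat.

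Neither receptor passed the test against no DEN liver. Tgfbr1 encodes the type I receptor of TGF-beta and lay between 21.8 and 27.9 CPM in the 12 no DEN livers. NT livers read 16.98 to 36.2 CPM at 8 weeks, 21.04 to 28.3 CPM at 14 weeks and 22.2 to 30.9 CPM at 20 weeks, so that the treated rats spread around the untreated ones. The log2 fold change was 0.02 (95% interval -0.40 to 0.44), 0.00 (-0.18 to 0.19) and 0.09 (-0.17 to 0.35). In nodules it ranged from 12.3 to 28.3 CPM at 14 weeks and from 14.0 to 34.3 CPM at 20 weeks, with log2 fold changes of -0.41 (SE 0.17, adjusted p = 0.0662) and -0.15 (SE 0.14, adjusted p = 0.408). The first of these passed without rat H21 (log2 fold change -0.54, adjusted p = 0.0176) and with nodule 2 of each rat alone (adjusted p = 0.0131). Without F06 the value at 14 weeks was -0.24 and did not pass.

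Tgfbr2, the type II receptor that binds the ligand, was the most uneven of the 10 genes among nodules. It stood at 30.1 to 51.5 CPM in the 12 no DEN livers, at 45.2, 47.9, 49.6 and 51.8 CPM in NT liver at 14 weeks, and at 37.99, 42.2, 45.5 and 55.6 CPM in NT liver at 20 weeks. The log2 fold change of NT liver was 0.09 (95% interval -0.11 to 0.28) at 14 weeks and -0.09 (-0.34 to 0.16) at 20 weeks. At 8 weeks 3 of the 4 NT livers were lower, at 19.5, 20.1 and 25.6 CPM, while H17 was at 40.4 CPM. That difference was -0.56 on the log2 scale (SE 0.25, adjusted p = 0.111) and passed with DESeq2 (adjusted p = 0.0464) and without H17 (-0.85, adjusted p = 0.00559). Over the alternative fits, that without the F rats included, it ranged from -0.58 to -0.22. Leaving out 1 rat gave -0.85 to -0.40. The livers at 19.5 and 20.1 CPM were those of F09 and F10. In the nodules of the H rats it ranged from 26.9 to 60.2 CPM. The nodules of rat F06 held 4.02 and 10.6 CPM where its own NT liver held 47.9 CPM, and those of F03 held 7.29 and 34.7 CPM where its NT liver held 42.2 CPM. The highest nodule was 11.1-fold above the lowest at 14 weeks and 8.26-fold at 20 weeks, while the NT livers of these weeks differed by at most 1.15-fold and 1.46-fold. Against no DEN liver the nodules had a log2 fold change of -0.70 (SE 0.41, adjusted p = 0.178) at 14 weeks and -0.48 (SE 0.20, adjusted p = 0.0610) at 20 weeks, and the groups overlapped at both. Without rat F06 the difference at 14 weeks was smaller and passed the test (log2 fold change -0.36, adjusted p = 0.0191). With nodule 2 of each rat alone it was -0.79 (adjusted p = 0.0494). At 20 weeks the difference passed without H25 (log2 fold change -0.66, adjusted p = 0.00976). Leaving out 1 rat, F03 included, it ranged from -0.66 to -0.31, and over the other alternatives from -0.98 to -0.195.

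Inhba, which encodes the beta A chain of activin A, was lower in every DEN group. No DEN livers held 18.6 to 26.8 CPM at 8 weeks, 17.9 to 28.7 at 14 weeks and 16.1 to 27.0 at 20 weeks. NT livers held 9.99, 10.1, 14.5 and 15.2 CPM at 8 weeks and 5.87, 6.65, 9.05 and 9.59 CPM at 14 weeks. Both sets lay wholly below the untreated rats of their week. At 20 weeks NT liver stood at 10.3, 12.9, 13.5 and 16.6 CPM, and H25, at 16.6, overlapped with the lowest no DEN rat at 16.1. Nodules ranged from 3.54 to 6.63 CPM at 14 weeks (median 4.95) and from 1.87 to 15.4 CPM at 20 weeks (median 5.37). In NT liver it was 1.90-fold lower at 8 weeks, 3.12-fold at 14 weeks and 1.53-fold at 20 weeks, and in nodules 5.12-fold and 2.95-fold lower. The log2 fold changes were -0.92 (SE 0.17, adjusted p = 0.00269), -1.64 (SE 0.19, adjusted p = 9.83e-05) and -0.62 (SE 0.17, adjusted p = 0.0232) in NT liver, and -2.36 (SE 0.17, adjusted p = 1.48e-05) and -1.56 (SE 0.38, adjusted p = 0.00673) in nodules. The call in NT liver at 20 weeks was lost without F03, H14, H16, H26 or H28 and with all 8 groups in 1 fit (adjusted p = 0.0813). The nodules of 20 weeks covered an 8.25-fold range, in which both nodules of H25 were the highest, at 11.4 and 15.4 CPM, and nodule 2 of H28 the lowest.

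Inhbe, the beta E chain that hepatocytes make, fell as well. No DEN livers held 73.8 to 105 CPM at 8 weeks, 73.6 to 105 at 14 weeks and 57.5 to 86.3 at 20 weeks. NT livers read 32.7, 42.8, 61.3 and 72.2 CPM at 8 weeks, then 26.6, 28.3, 28.7 and 31.5 CPM at 14 weeks, and 26.2, 29.1, 37.8 and 51.7 CPM at 20 weeks. The treated rats were below the untreated ones of the same week throughout, and they were closest together at 14 weeks. Nodules ranged from 18.4 to 29.8 CPM at 14 weeks (median 21.3) and from 16.6 to 32.1 CPM at 20 weeks (median 25.6). The gene was 1.67-fold lower at 8 weeks, 2.95-fold at 14 weeks and 1.81-fold at 20 weeks in NT liver, and 3.86-fold and 2.703-fold lower in nodules. The log2 fold changes were -0.74 (SE 0.24, adjusted p = 0.0377), -1.56 (SE 0.11, adjusted p = 3.26e-06) and -0.85 (SE 0.23, adjusted p = 0.0276) in NT liver, and -1.95 (SE 0.15, adjusted p = 2.02e-05) and -1.43 (SE 0.18, adjusted p = 0.000213) in nodules. The calls at 8 and 20 weeks in NT liver each depended on single rats, and were lost without F10, H05, H07 or H18 at 8 weeks and without F03, H14, H25 or H26 at 20 weeks. The 8-week call was also lost without both F rats and with no filter on low counts.

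Smad7, the inhibitory SMAD that the pathway induces, did not pass the test in any of these comparisons. It was 11.9 to 20.8 CPM in the 12 no DEN livers, 13.2 to 22.7 CPM in NT liver at 8 weeks, 14.9 to 15.98 CPM at 14 weeks and 11.7 to 16.6 CPM at 20 weeks. Treated and untreated rats overlapped at each week. The log2 fold changes in NT liver were 0.15 (95% interval -0.25 to 0.55), -0.02 (-0.35 to 0.30) and -0.29 (-0.60 to 0.01). In nodules they were -0.12 (-0.49 to 0.26) at 14 weeks and -0.34 (-0.66 to -0.02, adjusted p = 0.0701) at 20 weeks. The difference in nodules at 20 weeks passed without H16 (adjusted p = 0.0371) or H25 (adjusted p = 0.0475).

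Tgfbi, which encodes a secreted matrix protein named for its induction by TGF-beta, went down. No DEN livers held 265 to 326 CPM at all 3 weeks. NT livers held 226, 231, 262 and 287 CPM at 8 weeks, 175, 183, 209 and 220 CPM at 14 weeks, and 195, 231, 257 and 278 CPM at 20 weeks. The groups overlapped at 8 and 20 weeks and were apart at 14 weeks. Nodules ranged from 129 to 208 CPM at 14 weeks (median 164) and from 123 to 267 CPM at 20 weeks (median 179). The log2 fold change in NT liver was -0.23 (SE 0.09, adjusted p = 0.0668) at 8 weeks, -0.57 (SE 0.09, adjusted p = 0.000275) at 14 weeks and -0.32 (SE 0.11, adjusted p = 0.0449) at 20 weeks. In nodules it was -0.85 (SE 0.09, adjusted p = 8.75e-05) at 14 weeks and -0.75 (SE 0.15, adjusted p = 0.00251) at 20 weeks, or 1.81-fold and 1.68-fold lower. The 8-week difference passed with DESeq2 (adjusted p = 0.0381) and without the F rats, and the 20-week call in NT liver was lost with upper quartile scaling and without F03, H13, H14, H16, H26 or H28.

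**Figure D2:**
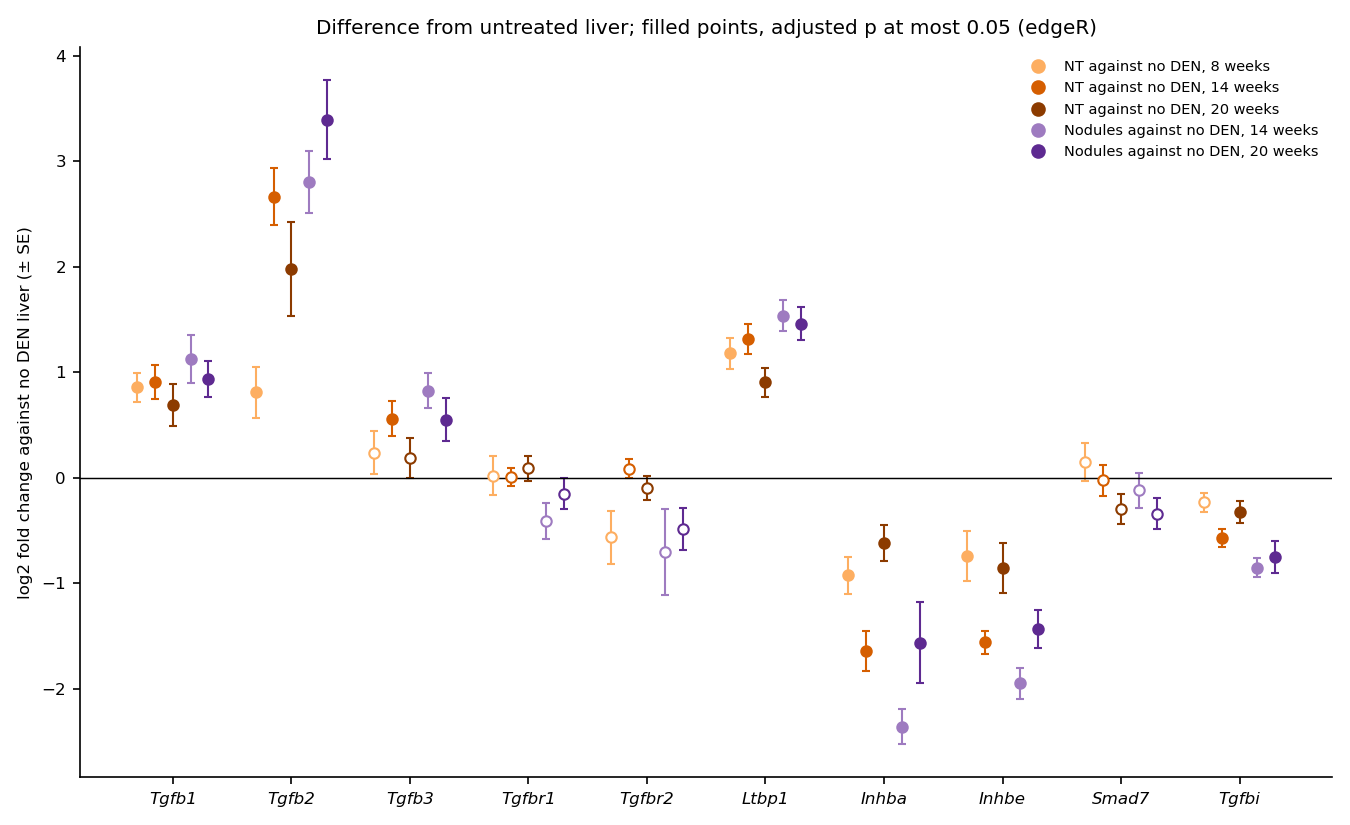
Log2 fold change against no DEN liver of the same week (vertical axis) for each of the 10 genes in the 5 comparisons, with bars of 1 SE. Filled points passed at an adjusted p of at most 0.05. Tgfb2 reaches 3.39 in nodules at 20 weeks and Inhba -2.36 in nodules at 14 weeks, while no point of Smad7 or Tgfbr1 is filled.

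For NT liver the study names a fold change of 2 and an adjusted p of at most 0.01. The fold was read here as a log2 fold change of at least 1. Under these thresholds fewer of the genes passed in NT liver. At 8 weeks 1 gene passed (Ltbp1) where 7.91% of all genes did, at 14 weeks 4 (Tgfb2, Ltbp1, Inhba and Inhbe) where 15.2% did, and at 20 weeks 1 (Tgfb2) where 5.22% did. For nodules the study names a fold change of 0.5 in like wording and an adjusted p of 0.05. With 0.5 read on the log2 scale, 7 passed at each week against 39.1% and 38.8% of all genes. A limit of 2 read on that scale would be stricter for NT liver than the one used here. Counting genes whose 4 DEN rats did not overlap with the 4 untreated rats gave 5, 7 and 4 of the 10 in NT liver at 8, 14 and 20 weeks, where 32.8%, 50.2% and 28.1% of all genes did not overlap. In nodules it gave 7 of the 10 at 14 weeks (51.4% of all genes) and 6 at 20 weeks (48.8%).

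In untreated liver the 10 genes did not change detectably from week 8 to week 20. In edgeR's test of any difference among the 3 weeks 0 of the 10 passed, with a lowest adjusted p of 0.394 for Inhbe. With DESeq2, which gave no adjusted p for Tgfb2, 0 passed. Over all genes 0.227% passed. At an unadjusted p under 0.05 it was 0 of the 10, where 13% of all genes were. The effect of DEN on NT liver was then compared between weeks with the interaction of treatment and week. From 8 to 14 weeks Tgfb2 gained 1.85 on the log2 scale (SE 0.36, adjusted p = 0.00800 with edgeR and 0.00130 with DESeq2), the only 1 of the 10 to pass with edgeR, where 8.96% of all genes did. Inhbe changed by -0.82 (SE 0.28, adjusted p = 0.0751), which passed with DESeq2 (adjusted p = 0.0265), where 10.9% of the genes did. From 14 to 20 weeks, the interval that spans the end of DEN, 0 of the 10 passed with edgeR, where 0.738% of all genes did. The nearest was Inhba, whose fall shrank by 1.03 on the log2 scale (SE 0.28, adjusted p = 0.0949) and which passed with DESeq2 (adjusted p = 0.0176), where 2.71% of the genes did. The effect in nodules changed from 14 to 20 weeks in 0 of the 10 with edgeR, where 0.0862% of all genes did. The count from 8 to 14 weeks became 2 without F06 or F10 and 3 without H17, with 1760, 675 and 1870 genes in all in place of 1005, and Tgfb2 passed without any 1 rat.

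Nodules and NT liver of the same rats were then set side by side. At 20 weeks all 8 nodules had more Tgfb2 than the NT liver of their own rat, and all 8 had less Inhba. For Ltbp1, Tgfb1 and Tgfb3 7 of 8 were higher, and for Tgfbi and Tgfbr2 7 of 8 were lower. At 14 weeks all 8 nodules had less Inhba, Inhbe, Tgfbi and Tgfbr2 than their own NT liver. At that week 7 of 8 had more Ltbp1, Tgfb1 and Tgfb2, and 7 of 8 had less Tgfbr1. The share of all genes with such counts was not determined. When the rats were treated as separate samples, 0 of the 10 genes passed at either week with edgeR, where 0% of all genes did. At 14 weeks 2 had an unadjusted p under 0.05 (Inhba and Inhbe), where 11.8% of all genes did, and at 20 weeks 6 did (Tgfb2, Tgfb3, Ltbp1, Inhba, Inhbe and Tgfbi), where 24% did. With DESeq2 0 passed at 14 weeks, where 0.425% of the genes did, and 2 at 20 weeks (Tgfb2 and Ltbp1), where 7.9% did. The groups did not overlap for 2 of the 10 at 14 weeks (Tgfbr2 and Inhbe, 11.4% of all genes) and for 1 at 20 weeks (Tgfb2, 12.4%).

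NT liver and nodules come from the same animals, and with the rat as a block in edgeR's fit 7 of the 10 genes passed at 20 weeks, where 29.3% of all genes did. Tgfb2 was higher in nodules by 1.49 on the log2 scale (SE 0.15, adjusted p = 2.17e-05), Ltbp1 by 0.56 (SE 0.11, adjusted p = 0.00375) and Tgfb3 by 0.36 (SE 0.12, adjusted p = 0.0436). Inhba was lower, with a log2 difference of -1.09 (SE 0.22, adjusted p = 0.0139), as were Tgfbi at -0.43 (SE 0.09, adjusted p = 0.00409), Tgfbr2 at -0.42 (SE 0.13, adjusted p = 0.0361) and Tgfbr1 at -0.24 (SE 0.08, adjusted p = 0.0440). At an unadjusted p under 0.05 it was 8, where 40.8% of all genes were. The count that passed in this fit was 2 without H26, 3 without F03, 5 without H28 and 7 without H25, while over all genes it went from 3378 to 1423, 2463, 2275 and 3827. Tgfb2 and Ltbp1 passed without any 1 rat, and Tgfbi was lost without H26 and Inhba without F03 or H26. The calls of Tgfb3, Tgfbr1 and Tgfbr2 were each lost without F03, H26 or H28, and without H28 Tgfb1 passed instead (0.39, adjusted p = 0.0289). At 14 weeks 0 passed with the block, where 0% of all genes did, and 4 had an unadjusted p under 0.05, where 22% did. Without rat F06 1726 of all genes and 5 of the 10 passed at 14 weeks in the same fit, namely Tgfbr2 (log2 difference -0.44, adjusted p = 0.000578), Inhba (-0.54, adjusted p = 0.00666), Tgfbi (-0.22, adjusted p = 0.00705), Inhbe (-0.28, adjusted p = 0.0142) and Ltbp1 (0.30, adjusted p = 0.0226). That fit was chosen after seeing the data.

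**Figure D3:**
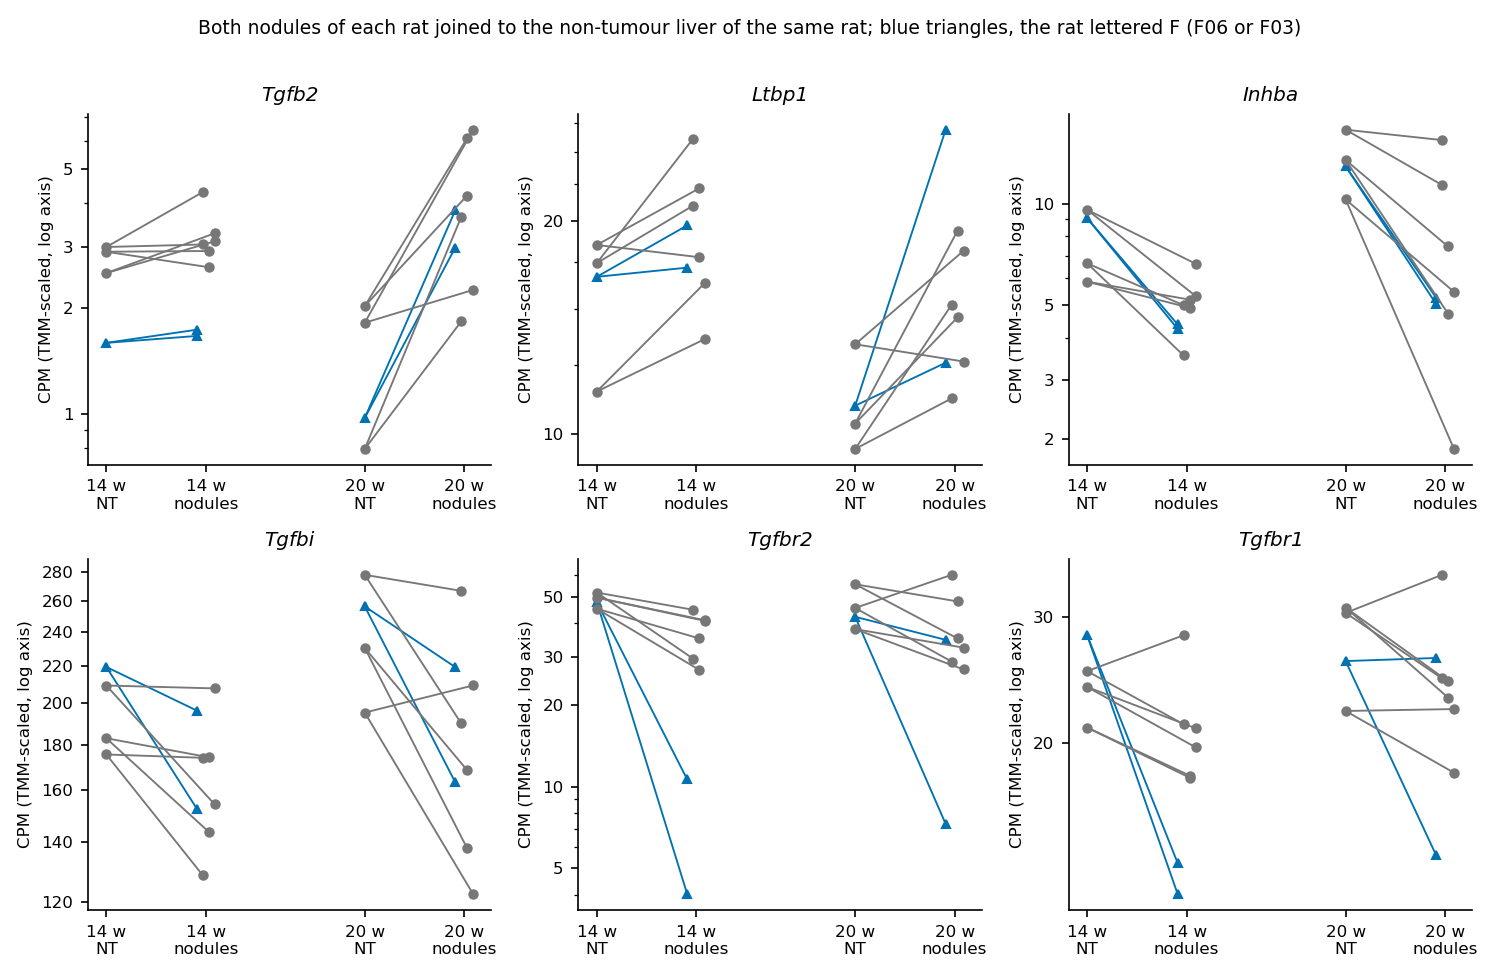
Level (CPM, log axis) in NT liver and in both nodules of the same rat for Tgfb2, Ltbp1, Inhba, Tgfbi, Tgfbr2 and Tgfbr1 at 14 and 20 weeks, with lines that join each nodule to its own NT liver and triangles for rats F06 and F03. The lines for Tgfb2 all rise at 20 weeks and those for Inhba all fall at both weeks, and the steepest falls of Tgfbr2 belong to F06 and to nodule 1 of F03.

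The nodules of 1 rat could differ severalfold. The higher nodule of F03 had 4.76-fold the Tgfbr2 of the lower one, and in H28 Inhba differed 2.92-fold and Tgfb2 2.86-fold between the nodules. The median fold between the nodules of a rat at 20 weeks was 1.73 for Tgfbr2, 1.72 for Tgfb2 and 1.47 for Inhba. For Tgfb1 and Tgfb3 it was 1.17.

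Markers of other cell types moved with the same groups. The stellate cell and fibroblast list, with 10 of 10 genes in the files and Col1a2 at 0 in all 40 libraries, summed to 242 to 297, 247 to 304 and 211 to 269.9 CPM in no DEN liver at 8, 14 and 20 weeks, to 424 to 545, 432 to 555 and 286 to 314 CPM in NT liver at 8, 14 and 20 weeks, and to 480 to 551 and 326 to 393 CPM in nodules at 14 and 20 weeks. The endothelial list (7 of 8 genes in the files) summed to 68.9 to 174 CPM without DEN and to 185 to 258 CPM in the DEN groups. The cholangiocyte list (5 of 6) summed to 16.4 to 24.3 CPM without DEN and to 30.4 to 38.8, 40.4 to 90.5 and 35.7 to 57.2 CPM in NT liver at the 3 weeks, with 65.3 to 118 and 77.1 to 186 CPM in nodules. Of the 9 stellate cell and fibroblast genes tested 7, 6 and 4 were higher in NT liver at the 3 weeks (19.8%, 29.4% and 16.7% of all genes). In nodules 5 were higher at either week (27.4% and 28.2% of all genes). In each of these comparisons 1 was lower, where 10.9% to 24.9% of all genes were. Tgfb1, Tgfb2 and Ltbp1 were higher in the same groups. The hepatocyte list (8 of 8), beside the lower Inhba and Inhbe, summed to 282341 to 331769 CPM without DEN. It summed to 237363 to 303098, 192561 to 238804 and 231777 to 305346 CPM in NT liver at 8, 14 and 20 weeks, where at 20 weeks it overlapped with no DEN liver, and to 166186 to 205100 and 169893 to 231072 CPM in nodules at 14 and 20 weeks. Alb made up much of this sum, at 77675 to 241620 CPM over the 40 libraries. Of the 8 hepatocyte genes 3, 5 and 2 were lower in NT liver at the 3 weeks (15.4%, 24.9% and 10.9% of all genes). In nodules 5 and 6 were lower (23.3% and 24.4%). In NT liver at 8 weeks 0 were higher, and 1 was in each other comparison with no DEN liver. The list of proliferating cells (4 of 4) went from 10.3 to 22.5 CPM without DEN to 75.5 to 95.2, 61.4 to 154 and 19.0 to 61.9 CPM in NT liver at the 3 weeks, the lowest NT value lying under the highest without DEN, and to 66.5 to 168 and 43.6 to 127 CPM in nodules. The lymphocyte list (7 of 8) summed to 3.08 to 5.42, 2.62 to 3.67 and 2.91 to 4.49 CPM without DEN at 8, 14 and 20 weeks, to 8.98 to 11.03, 3.96 to 7.55 and 5.38 to 7.43 CPM in NT liver, and to 4.38 to 9.66 and 4.87 to 7.53 CPM in nodules at 14 and 20 weeks, and so was also higher in the DEN groups of each week. The macrophage list (7 of 8) overlapped between treated and untreated rats at each week. In every DEN group its highest sum for a rat was that of an F rat. In NT liver at 14 weeks F06 had 733 CPM and the H rats 308 to 384 CPM. The part of these cell types in the levels of the 10 genes was not tested.

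The other genes of the pathway were described from 7 lists of 86 genes, of which 81 are in the files. Over all lists, 21 were higher and 11 lower of 66 tested in NT liver at 8 weeks, which is 48.5% where 35.3% of all genes passed. At 14 weeks 33 and 10 of 70 passed (61.4%, all genes 54.4%), and at 20 weeks 20 and 6 of 68 (38.2%, all genes 27.6%). In nodules 31 were higher and 15 lower of 70 at 14 weeks (65.7%, all genes 50.7%), and 34 and 15 of 70 at 20 weeks (70%, all genes 52.7%). Genes near 0 counts without DEN, such as Inhbb in NT liver at 14 weeks and in nodules, entered these tallies through the DEN groups. The same filter was applied to all genes. The median log2 fold change of the listed genes was 0.27, 0.37 and 0.23 in NT liver and 0.31 and 0.23 in nodules, where the median of all genes was within 0.02 of 0. In nodules against NT liver with the rat as block, 30 of 74 passed at 20 weeks, where 29.3% of all genes did, and 0 of 73 at 14 weeks, where 0% did.

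Of the genes listed for TGF-beta activation, 8 of 11 tested were higher and 2 lower in NT liver at 14 weeks, where 29.4% of all genes were higher and 24.9% lower. In nodules at 14 weeks 9 were higher and 2 lower, where 27.4% and 23.3% of all genes were. Ltbp2 encodes an elastic fibre protein named for its likeness to the latent binding proteins. At 14 weeks it went from 1.40 ± 0.43 CPM (SD, n = 4) in no DEN liver to 12.5 ± 5.0 in NT liver and 24.3 ± 2.0 in nodules. The log2 fold change in nodules was 4.07 (SE 0.21, adjusted p = 3.43e-06). Thbs1, whose product thrombospondin releases the active ligand, had log2 fold changes of 2.37 and 2.44 in NT liver and nodules at 14 weeks. Fbn1, the fibrillin to which the latent complex is bound, had 1.61 and 1.47.

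Of the genes known to respond to TGF-beta, 12 of 17 tested were higher and 1 lower in NT liver at 14 weeks, where 29.4% of all genes were higher and 24.9% lower. In NT liver 6 were higher and 2 lower of 16 at 8 weeks (19.8% and 15.4% of all genes), and 5 and 2 of 16 at 20 weeks (16.7% and 10.9%). In nodules 10 were higher and 2 lower of 17 at 14 weeks (27.4% and 23.3%), and 12 and 3 of 17 at 20 weeks (28.2% and 24.4%). The smooth muscle gene Tagln had log2 fold changes of 1.34 and 1.96 in NT liver and nodules at 14 weeks, and the collagen gene Col1a1, which is also a stellate marker here, 1.94 and 2.63. At 20 weeks in nodules Tagln had 1.59 (SE 0.18, adjusted p = 0.000124) and Col1a1 2.33 (SE 0.29, adjusted p = 0.000218).

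Of 11 other receptors and co-receptors, 2 were higher and 4 lower in nodules at 14 weeks, which is 54.5% where 50.7% of all genes passed, and 2 were higher and 3 lower at 20 weeks (45.5%, all genes 52.7%). In NT liver 2 were higher and 1 lower at 8 weeks (27.3%, all genes 35.3%), 3 and 1 at 14 weeks (36.4%, all genes 54.4%) and 1 and 0 at 20 weeks (9.09%, all genes 27.6%). Acvr2a, a type II receptor of activin, had a log2 fold change of -0.79 (SE 0.15, adjusted p = 0.00193) in nodules at 14 weeks, the endothelial type I receptor gene Acvrl1 0.77 (SE 0.27, adjusted p = 0.0415) and the pseudoreceptor gene Bambi 0.93 (SE 0.21, adjusted p = 0.00546). Of 7 SMADs and partners 2 were lower in NT liver at 8 weeks (35.3% of all genes passed), 0 passed at 14 and 20 weeks (54.4% and 27.6%), and 1 was lower in nodules at each week (50.7% and 52.7%). At 8 weeks these were Smad3 (log2 fold change -0.36, adjusted p = 0.0400) and Smad4, the shared partner of the receptor-activated SMADs (-0.24, adjusted p = 0.0384), the former named after its value was seen. In nodules it was Smad4, with log2 fold changes of -0.34 and -0.35. Of 8 feedback genes 2 were higher and 4 lower in nodules at 14 weeks, where 50.7% of all genes passed. The co-repressor Tgif1 rose by 0.95 on the log2 scale and Pmepa1, which sequesters the receptor-activated SMADs, by 0.97 in nodules at 14 weeks, and the ubiquitin ligase Nedd4l changed by -0.68.

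Inhbc and Inhbb are further activin chains. Inhbc, the hepatocyte beta C chain, went from 295 ± 27 CPM to 103 ± 19 in NT liver and 86.9 ± 12 in nodules at 14 weeks (log2 fold changes -1.502 and -1.79), and from 236 ± 19 to 153 ± 33 and 101 ± 30 at 20 weeks. Inhbb, the beta B chain of activin B, had 0 to 4 counts in each no DEN library and reached 1.35 ± 0.54 CPM in NT liver at 14 weeks, and 2.03 ± 0.74 and 2.32 ± 1.3 CPM in nodules at 14 and 20 weeks. At so few counts without DEN, Inhbb was not tested in NT liver at 8 and 20 weeks, and it entered the other tests through the DEN groups, so its values are given as a description.

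**Figure D4:**
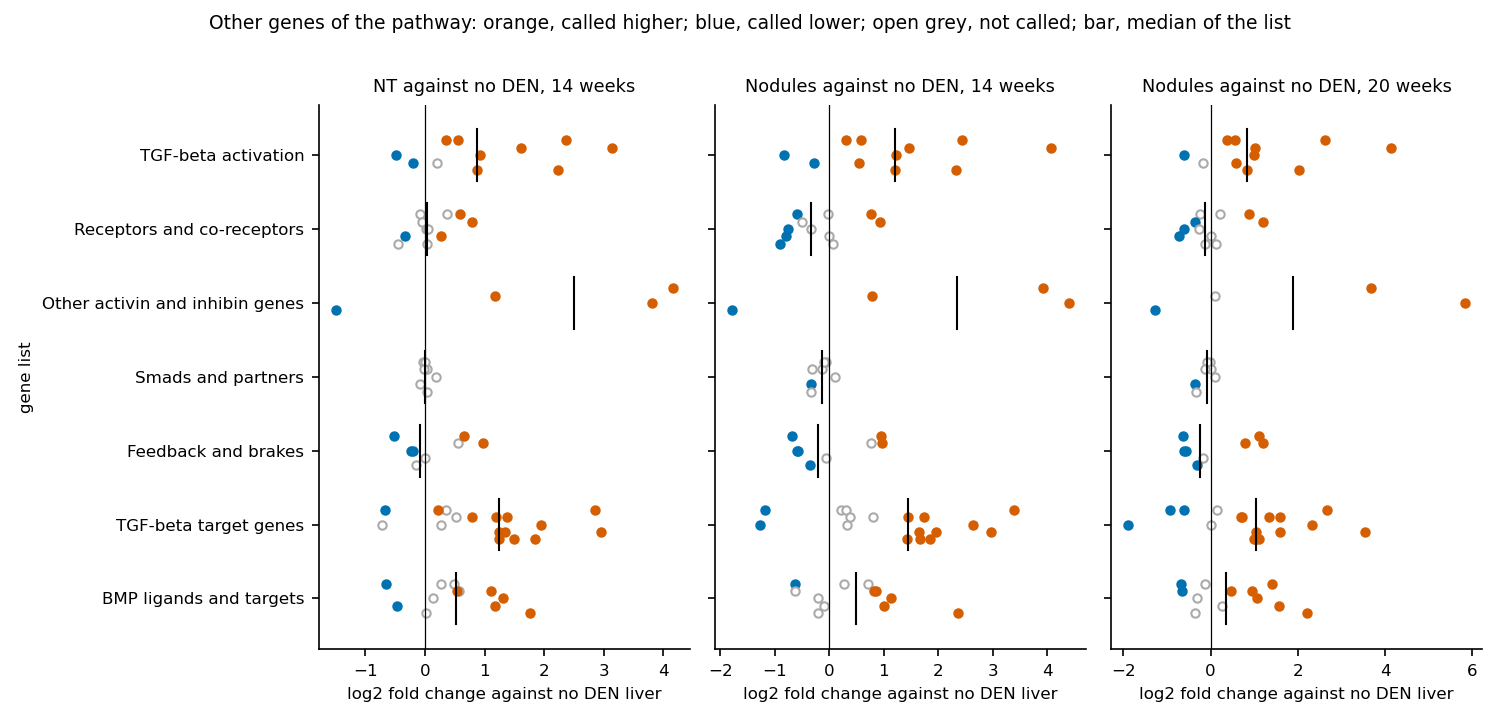
Log2 fold change against no DEN liver of the other pathway genes, by list, for NT liver at 14 weeks and nodules at 14 and 20 weeks. Orange points passed as higher, blue as lower, open grey points did not pass, and bars are medians of a list. The medians of the lists on TGF-beta activation and target genes lie between 0.83 and 1.45, and those of the SMAD and feedback lists between -0.24 and -0.00.

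The genes with the most similar pattern over the 8 groups were found by the root mean square difference of log2 group means, each centred on its own mean, among 10098 genes. For Inhbe the nearest were the complement gene C6 (0.0943), Extl1 and Inhbc (0.102). For Inhba they were the plasma protease inhibitor gene A1i3 (0.101), Sult1c3 and Kynu, and for Tgfbi they were Gcsh (0.0323), Gabarapl2 and Alb (0.0365), the albumin gene. For Tgfb2 they were Anxa7 (0.101), Cldn7 and Gmds, and for Ltbp1 the cyclin gene Ccne1 (0.0601), Btg3 and Fkbp10. For Tgfb1 they were Calhm2 (0.0450), Pip4k2a and Cuedc1, for Tgfb3 Frmd8, Tmem120a and Tdp1, for Tgfbr1 Tmem144, Rmdn3 and Arid4a, for Tgfbr2 Nfic, Reep3 and Clint1, and for Smad7 Ints4, Perp and Mmadhc. The measure describes likeness over 8 means, and the genes were ranked on it without a test.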

How the data were processed

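RNA of 40 liver and nodule samples was sequenced as strand-specific read pairs. Per the study's methods and the submitters' notes, reads were aligned to rat build rn6 with STAR 2.7.1a and counted with HTSeq on the reverse strand, keeping pairs fully within exons and dropping pairs that map to several places. The deposited values are raw counts for 17337 genes, and the 5 HTSeq summary rows were left out (21.5 to 34.5% of pairs without a feature). The samples of a group are from separate rats, except that the 8 nodule libraries of a week come from 4 rats. The 10 genes and the gene lists were chosen with earlier results of these data known.

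Comparisons used edgeR 4.0.16 in R 4.3.3 (filterByExpr, TMM, robust quasi-likelihood F test) on the 2 groups alone, with the counts of a rat's 2 nodules added. The SE is the size of the log2 fold change over the square root of F. Beyond the 10 genes, the 3 genes of each list with the largest change among those passing in nodules at 14 weeks with a mean of at least 1 CPM over the 2 groups are named, except 1 gene that is not reported here. Profiles for the likeness measure used log2(CPM + 0.5). Alternatives were DESeq2 1.42.0, 2 other scalings, no filter, all 8 groups in 1 fit, nodules singly, the rat as block, and leaving out rats. Rat numbers pair NT liver and nodules of the same animal, whose deviations correlated over genes in each of 8 rats (r of 0.368 to 0.543). No 2 libraries of a group agreed within sampling noise.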

Additional observations from a re-analysis of the deposited data

Results flagged for a closer look

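In 6 of the 80 sets of values (10 genes in 8 groups), 1 library stood apart from the others of its group by Dixon's criterion, which chance meets in about 1 of 20 groups. The no DEN liver of rat H13 at 20 weeks had the lowest Tgfb2, at 0.0975 CPM where the next was at 0.430 CPM, and the highest Tgfb3, at 3.61 CPM where the next was at 2.32 CPM. The no DEN liver of H14 at 20 weeks had the highest Inhbe, at 86.3 CPM. In nodules at 20 weeks both values that stood apart were from rat F03, with Tgfb3 at 5.83 CPM in nodule 2, where the next library was at 4.002 CPM, and Smad7 at 8.55 CPM in nodule 1, where the next was at 12.6 CPM. The no DEN liver of H08 at 8 weeks had the lowest Smad7, at 12.5 CPM, with the next at 17.4 CPM.

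The effect of DEN on Tgfb2 in NT liver differed between weeks, by 1.85 on the log2 scale from 8 to 14 weeks (edgeR interaction, adjusted p = 0.00800).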

How the results depend on the processing

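Of 511 alternatives to the 33 values of the 10 genes that passed, 0 reversed the direction and 43 no longer passed. Over all 1780 alternatives for the 10 genes, 1644 kept direction and call, 57 passed newly and 36 changed sign, all of these where the value had not passed. Upper quartile scaling brought the median log2 fold change of all genes to as much as 0.152, from 0.00 by TMM in the same comparison, and raised the share of calls that were higher from 56.2% to 73.5%, 54.1% to 67.1% and 60.4% to 74.2% in NT liver at 8, 14 and 20 weeks, and from 54% to 69% and 53.6% to 67.6% in nodules at 14 and 20 weeks. The cause of the changes listed here was not tested.

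Signs changed for values near 0. Without the F rats Tgfb3 in NT liver at 8 weeks was -0.052. Tgfbr1 in NT liver at 14 weeks was -0.024 with DESeq2, -0.015 with RLE scaling, -0.0059 with no filter, -0.028 with all 8 groups and -0.082 without the F rat. With upper quartile scaling Smad7 was 0.070 in NT liver at 14 weeks, and 0.032 both in nodules against no DEN liver at 14 weeks and in nodules against NT liver at 20 weeks (0.071 with nodule 2 alone). The change of the nodule effect from 14 to 20 weeks was -0.32 for Tgfbr2 with nodule 1 alone, and 0.24 for Ltbp1 and -0.16 for Tgfbi with nodule 2 alone. Leaving out 1 rat, the values of Tgfbr1 in NT liver ranged from -0.18 to 0.19, -0.082 to 0.070 and -0.019 to 0.17 at 8, 14 and 20 weeks. Smad7 ranged from -0.14 to 0.11 in NT liver and -0.24 to 0.011 in nodules at 14 weeks, and from -0.093 to 0.068 in nodules against NT liver at 20 weeks (0.063 with the replicate block and without H28). The change from 8 to 14 weeks ranged from -0.088 to 0.14 for Tgfb1 and from -0.18 to 0.15 for Tgfbr1, and the change of the nodule effect from -0.10 to 0.42 for Tgfbr2, -0.21 to 0.023 for Ltbp1 and -0.061 to 0.18 for Tgfbi.

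Counts of the 10 genes that passed moved as follows. In NT liver leaving out 1 rat gave 3 to 6 at 8 weeks and 2 to 6 at 20 weeks, 2 without the F rat, with 1872 to 3116 genes in all. The study's thresholds gave 1, 4 and 1. In nodules against NT liver at 20 weeks DESeq2 gave 2, the fit with all 8 groups 4 and the replicate block 7, over all genes 1119, 1722 and 3378, with 239 for nodule 1 alone, and among the pathway genes 13, 16 and 30, with 1 for nodule 1 alone. Leaving out 1 rat gave 0 to 2 of the 10, 0 to 451 of all genes and 0 to 3 pathway genes, and with the block 2 to 7, 1423 to 3827 (2463 without F03, 2275 without H28) and 12 to 32 (22 without H28). At 14 weeks DESeq2 gave 60 genes and separate nodules 1, and leaving out 1 rat, with and without the block, gave 0 to 5 of the 10, 0 to 1726 of all genes and 0 to 14 pathway genes. The change from 8 to 14 weeks had 1005 genes in all, 1529 with DESeq2 and 533 to 1870 leaving out 1 rat, and of the 10 genes 2 with DESeq2, 2 without the F rats and 1 to 3 leaving out 1 rat. From 14 to 20 weeks there were 83 genes, 382 with DESeq2 (1 of the 10), 182 without the F rats and 31 to 408 leaving out 1 rat. The change of the nodule effect had 10 genes, 29 with DESeq2, 5 for nodule 1 alone and 6 to 15 leaving out 1 rat. In untreated liver across weeks 24 genes passed, 270 with DESeq2 and 6 to 134 leaving out 1 rat. The block changed no other call of the 10 genes than those given with the values above. Tgfb2 in untreated liver rests on 2 to 14 counts per library, the lowest counts behind any fold given for the 10 genes.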

Other observations

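Genes of the related bone morphogenetic protein (BMP) branch, which signals through SMAD1 and SMAD5, passed at shares from near to above those of all genes. Of 12 tested, 6 were higher and 1 lower in NT liver at 8 weeks (58.3%, all genes 35.3%), 5 and 2 at 14 weeks (58.3%, all genes 54.4%) and 4 and 1 at 20 weeks (41.7%, all genes 27.6%). In nodules 5 were higher and 1 lower at 14 weeks (50%, all genes 50.7%) and 6 and 2 at 20 weeks (66.7%, all genes 52.7%). Bmp2, an endothelial ligand that controls hepcidin, went from 2.604 ± 0.69 CPM (SD, n = 4) to 6.42 ± 0.45 in NT liver and 5.83 ± 0.96 in nodules at 14 weeks (log2 fold changes 1.31 and 1.14). Bmp4 went from 1.88 ± 0.83 CPM to 4.25 ± 0.77 and 3.89 ± 0.77 (1.18 and 1.01). Id1, a target gene of this branch, went from 2.41 ± 0.54 CPM to 8.16 ± 1.5 in NT liver and 12.8 ± 3.6 in nodules (1.76 and 2.37), and at 20 weeks from 2.03 ± 0.12 CPM to 4.89 ± 0.37 and 9.65 ± 1.2.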
